A study of Mus musculus with 6 samples.

Results

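Serpins are a family of proteins named for their serine protease inhibitors. A typical inhibitory member presents an exposed loop as bait, is cut by its target protease, and then changes shape so that the protease stays trapped in a covalent complex and both are lost. Members are sorted into clades by letter: the secreted antitrypsin- and antichymotrypsin-like clade A, the mostly intracellular clade B, antithrombin (C), heparin cofactor (D), the protease nexin clade (E), the antiplasmin and pigment epithelium factors (F), the complement inhibitor (G), the collagen chaperone (H) and the neuroserpins (I). In the testis they meet the proteases of germ cell migration, tubule remodelling and the acrosome, and male mice without Serpina5, the protein C inhibitor, are infertile.

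All non-control probes whose gene name on the array begins with Serpin, a clade letter from a to i and a number were taken, which gave 78 probes for 59 of the 27343 gene names on the array. They were read in whole testes of 3 Prss37 knockout (KO) male mice and 3 wild-type (WT) male mice, all on the C57BL/6 background and 6 to 8 weeks old, with 1 single-colour array per mouse. Prss37 belongs to the trypsin family of serine protease genes and is expressed in testis, and the comparison asks which transcripts differ when it is missing. Neither the deleted part of Prss37 nor any littermate relation of the WT mice is given in the labels. For KO mice the description field reads Prss55, whereas title and source give Prss37, and the title was followed. Signals below are processed intensities in arbitrary units, scaled so that every array has the same 75th percentile. A signal depends on the probe as well as on the transcript, so levels are compared between mice and never between genes. The comparison is for 1 probe or for the summed signal of a gene list, in which bright probes weigh most.

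The 6 arrays were of like quality, with 69.2% to 71.4% of spots well above background, 0 saturated spots and a 75th percentile of 1550 to 1707 before scaling. Replicates 1 and 2 of each genotype shared slide 1, and replicate 3 of each lay on slide 2. The first principal component of the tested genes, with 39.7% of the variance, parted the genotypes, at 12.1 to 16.5 in KO and -18.0 to -11.8 in WT. The second, with 23.0% of the variance, ran from -0.13 to 12.1 on slide 1 and was lower for both mice of slide 2, at -8.41 in KO and -20.5 in WT. Results that rest on 1 slide are therefore given by slide. The signal of the targeted gene Prss37 was 66945, 73117 and 70878 in KO testes, against 115024, 106827 and 123200 in WT testes, a log2 difference of -0.71 (SE 0.07, adjusted p = 0.024, and up to 0.13 with 1 array left out). Its probe was well above background on every KO array, and whether the probe lies in the deleted part is unknown. All 11 germ cell markers carried by the array passed the background filter, with a median log2 difference of 0.07 and a summed signal of 2098480 to 2347600 in KO and 2098190 to 2192970 in WT testes. Of the markers of other cell types, 1 was called, the erythroid gene Alas2 (log2 difference 0.53, adjusted p = 0.039), where 2.46% of all tested genes were called. Tested were 8 Sertoli, 7 Leydig, 6 peritubular, 8 macrophage, 5 endothelial and 4 adipocyte markers. There were 3 each for epididymis, seminal vesicle, erythroid cells and T and NK cells, 2 for mast cells and 1 for liver. Of the 3 erythroid markers tested, 2 lay below 0, Hba-a1 at -0.25 and Slc4a1 at -0.23.

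The arrays read each transcript through a 60-base oligonucleotide, and the sequences of the probes on which the results turn are shown here, 5′ to 3′ as the scanner files give them. Capitals mark the longest run of bases shared with any other serpin probe. Probes were compared only with probes, which may lie at different places in their transcripts. A short run therefore does not show that a probe is specific within the family. Positions are on mm9, from the scanner files, and exon or UTR annotation on that build was not used here. The Serpina3a probe lies at chr12:105359777-105359836, the Serpina3n probe at chr12:105651918-105651977, the Serpina7 probe within chrX:135615848-135616502, the 2 Serpinb9 probes at chr13:33107929-33107988 and chr13:33109371-33109430, the Serpinf1 probe that stands for the gene at chr11:75223568-75223627 and the Serpinh1 probe at chr7:106493971-106494030.
Serpina3a: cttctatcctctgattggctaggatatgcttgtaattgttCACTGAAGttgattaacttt
Serpina3n: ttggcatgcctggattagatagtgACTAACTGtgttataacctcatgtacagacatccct
Serpina7: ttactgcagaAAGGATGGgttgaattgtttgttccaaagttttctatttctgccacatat
Serpinb9, first probe: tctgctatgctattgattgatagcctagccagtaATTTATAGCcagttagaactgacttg
Serpinb9, second probe: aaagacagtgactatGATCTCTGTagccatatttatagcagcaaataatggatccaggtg
Serpinf1: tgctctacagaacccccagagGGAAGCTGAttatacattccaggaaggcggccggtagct
Serpinh1: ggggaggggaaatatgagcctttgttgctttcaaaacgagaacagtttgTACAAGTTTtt

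The longest shared run was 8 bases in the probes of Serpina3a, Serpina3n and Serpina7, and its median over all 78 serpin probes was 9 bases. It was also 8 bases in the Serpina1d probe, which is listed for 3 RefSeq genes. Runs of 20 bases or more were found in 4 probes, which are 2 overlapping pairs of the same gene. They belong to Serpinb2, with an overlap of 20 bases, and to the pseudogene Serpina4-ps1, with 31. The Serpinb2 pair is shown because its probes disagreed in sign although they overlap.
Serpinb2, first probe: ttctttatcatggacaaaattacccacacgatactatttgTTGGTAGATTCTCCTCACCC
Serpinb2, second probe: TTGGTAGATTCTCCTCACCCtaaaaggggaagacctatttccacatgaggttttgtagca

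Not all serpin genes gave a signal in testis. Of the 78 probes, 36 were well above background on all 6 arrays, 14 on some and 28 on none, that is 46.2% on all arrays against 66.6% of the 41174 probes of the array. A probe was tested if it was well above background on every array of at least 1 genotype, which held for 41 serpin probes and 35 of the 59 genes. Clade A had 17 of 22 genes tested and clade B 10 of 26. The single antithrombin, complement inhibitor and collagen chaperone genes were tested, as were both clade F and both clade I genes, while clade D had 0 of 1. The genes sit mainly in 3 clusters on mm9. Of the 12 clade B genes between 108.779 and 109.505 Mb on chromosome 1, 2 were tested, whereas 8 of 14 clade B genes between 32.9347 and 34.0788 Mb on chromosome 13 were. On chromosome 12, between 104.853 and 105.652 Mb, the mapped probes cover 21 clade A genes.

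**Figure D1:**
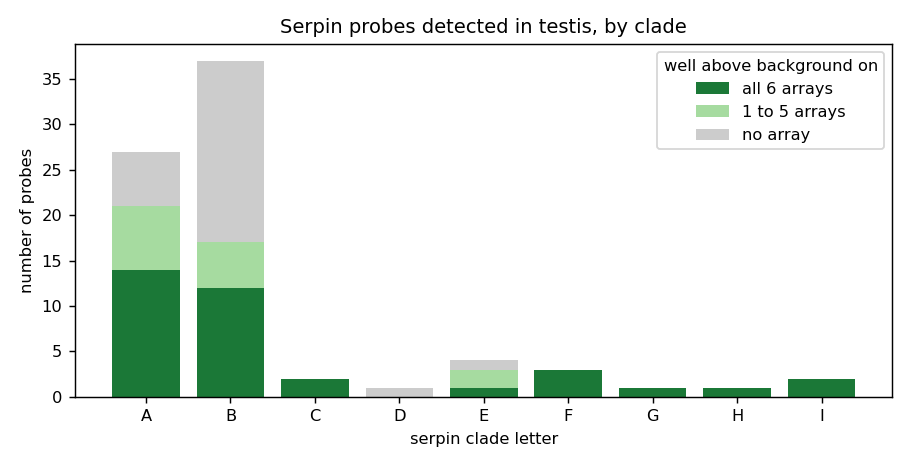
Number of serpin probes (vertical axis) in each clade (horizontal axis), stacked by whether the probe was well above background on all 6 arrays, on some or on none. Clade B has 20 of its 37 probes in the group that was above background on no array.

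Between genotypes, 1 of the 35 tested serpin genes passed the test, Serpina3a, which rose in KO testes, and 0 fell. Across all 18976 genes tested, 2.46% were called in either direction, 1.21% higher and 1.25% lower in KO, so the serpin count lies near the background. The serpin differences lay on both sides of 0, with 18 genes above and 17 below, against 49.3% of all tested genes above 0. Their median log2 difference was 0.02, and the median over all genes was -0.0024. These counts and the median include Serpina3n, tested only through the KO group, which favours a difference above 0. They also include Serpina1b, Serpina1c, Serpina6 and Serpinb9g, tested only through the WT group, which favours a difference below 0. With the filter on all 6 arrays, 30 serpin genes were tested and their median was 0.02. At an unadjusted p under 0.05, limma placed 5 serpin genes higher and 2 lower, where 23.9% of all tested genes passed in either direction. The groups did not overlap for 7 serpin genes higher in KO and 1 lower in KO, against 15.5% and 16.0% of all genes. Serpina3n was among the 5 and among the 7. The difference had the same sign on both slides for 25 of the 35, against 67.6% of all tested genes. In a whole organ, fewer cells of a type and less RNA per cell cannot be told apart.

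**Figure D2:**
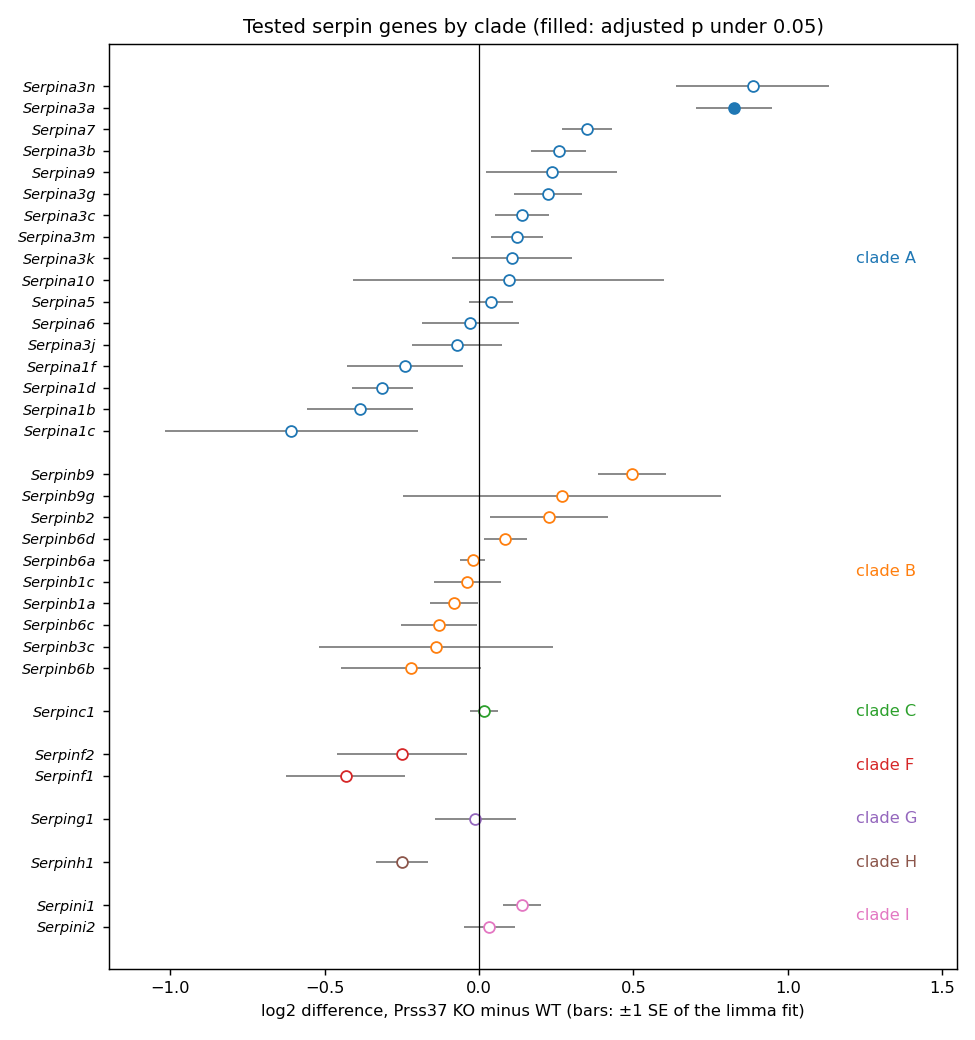
Log2 difference, KO minus WT (horizontal axis), for 34 of the 35 tested serpin genes grouped by clade (vertical axis), with bars of 1 SE from the limma fit. Serpina3a at 0.83 is the filled point, and the 4 Serpina1 genes at the foot of clade A lie between -0.61 and -0.24.

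The called gene, Serpina3a, belongs to the Serpina3 group, a set of neighbouring mouse genes related to the single human antichymotrypsin gene. Its signal was 4201, 3881 and 4171 in KO testes, against 1945, 2304 and 2728 in WT testes. All 3 KO mice lay above all 3 WT mice, and the WT mice differed more among themselves. The means were 4084 ± 176 in KO and 2326 ± 392 in WT (SD, n = 3 each), a log2 difference of 0.83 (SE 0.12) and a 1.77-fold higher level in KO with an adjusted p of 0.042. Slide 1 gave a log2 difference of 0.93 and slide 2 of 0.61. Fitting slide as a block raised the adjusted p to 0.057. The adjusted p was 0.030 without WT replicate 3, but without any 1 of the other 5 arrays it lay between 0.058 and 0.153.

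Serpina3n, an acute-phase member that inhibits granzyme B and cathepsin G, did not pass the test. Its signal was 62.0, 55.2 and 45.5 in KO testes, against 29.9, 39.8 and 20.8 in WT testes. The groups did not overlap, and the probe was well above background on 3 KO arrays but on only 1 WT array, so the WT values lie close to the floor of the measurement. The log2 difference was 0.89 (SE 0.25, adjusted p = 0.107), with 0.76 on slide 1 and 1.13 on slide 2, and it was 0.32 after normexp background correction, a setting that left Serpina3a at 0.81.

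The other Serpina3 genes differed less. Serpina3g had signals of 8248, 7037 and 6719 in KO testes, against 6652, 5512 and 6687 in WT testes. The groups were separated by a narrow margin, and the log2 difference was 0.22 (SE 0.11, adjusted p = 0.28), with 0.33 on slide 1 and 0.01 on slide 2. Serpina3b, with 76.9, 67.1 and 83.9 in KO and 65.4, 64.2 and 60.2 in WT testes, also did not overlap, at a log2 difference of 0.26 (adjusted p = 0.156). Serpina3c, Serpina3m and Serpina3k had log2 differences of 0.14, 0.12 and 0.11 with overlapping groups, and Serpina3j had -0.07. The Serpina3k value is from a dim probe without a mapped position, and the mapped Serpina3k probe was above background on no array. On slide 2 alone, 4 of the 8 tested Serpina3 genes lay above 0, namely Serpina3a, Serpina3b, Serpina3g and Serpina3n. Serpina3n had entered the test only through the KO group, which favours a difference above 0. The 2 Serpina3f probes were above background on 1 and 2 KO arrays and on 0 WT arrays, and Serpina3i was above it on none.

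**Figure D3:**
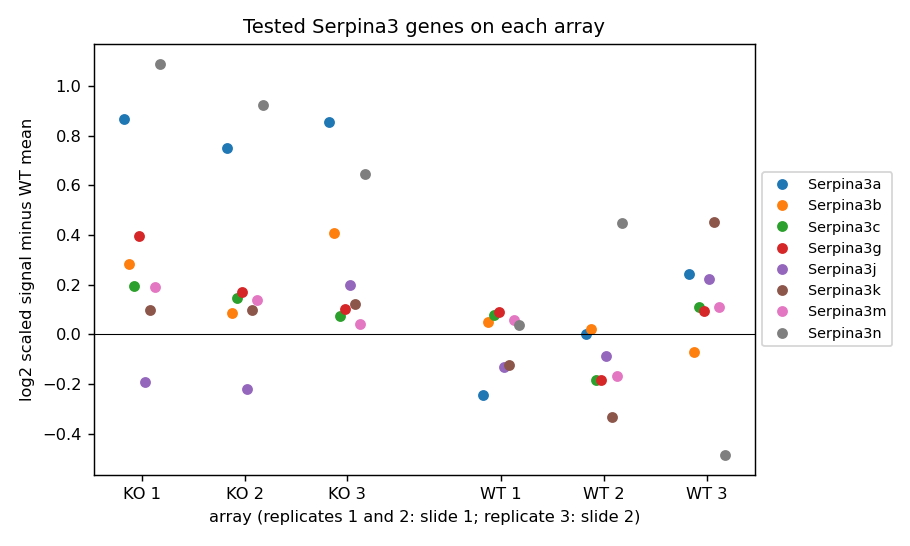
Log2 scaled signal of the 8 tested Serpina3 genes on each array (horizontal axis), after subtracting the gene's WT mean (vertical axis), 1 colour per gene. Serpina3a and Serpina3n stand above the other genes on all 3 KO arrays, and Serpina3c, Serpina3g and Serpina3m are lowest in WT replicate 2.

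The 4 Serpina1 genes, copies of the antitrypsin gene whose product inhibits neutrophil elastase, had log2 differences below 0, and 0 passed the test. Serpina1d had signals of 982, 1190 and 1003 in KO testes, against 1406, 1189 and 1345 in WT testes. KO replicate 2 and WT replicate 2 met at the same level, and the log2 difference was -0.31 (SE 0.10, adjusted p = 0.135). The Serpina1d probe is listed for 3 RefSeq genes of the group and the Serpina1c probe for 4, so these readings cannot be given to 1 copy, and no probe carries the name Serpina1a. Serpina1b (-0.39), Serpina1c (-0.61) and Serpina1f (-0.24) were dim. Serpina1b was above background on 1 KO and 3 WT arrays and Serpina1c on 2 KO and 3 WT arrays, so both were tested only through the WT group, which favours a difference below 0, and no median is given for the 4. The differences of all 4 were further below 0 on slide 2 than on slide 1, and that of Serpina1d, above background on all 6 arrays, was -0.26 on slide 1 and -0.42 on slide 2. Markers of liver, the main source of antitrypsin, were mostly under the filter: 5 of 6, albumin among them, were not tested, and the tested one, Ahsg, had 101 to 135 in KO and 165 to 300 in WT testes (adjusted p = 0.092). The part of liver-type transcripts in the result was not tested.

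Among the remaining clade A genes, Serpina7, which encodes the thyroxine carrier of plasma and is X-linked, came closest to the threshold. Its signal was 119, 121 and 113 in KO testes, against 84.5, 103 and 90.2 in WT testes. The groups did not overlap, the log2 difference was 0.35 (SE 0.08, adjusted p = 0.075), and it was alike on both slides, at 0.36 and 0.33. Without WT replicate 2 the adjusted p was 0.037. Serpina5 had signals of 12880, 10760 and 11536 in KO testes, against 11440, 11418 and 11272 in WT testes. The KO values surrounded the WT values, and both Serpina5 probes gave a log2 difference of 0.04. Serpina9 (0.24), Serpina10 (0.10) and the corticosteroid carrier gene Serpina6 (-0.03) had adjusted p-values of 0.55 or above. The Serpina10 value is from a probe named by symbol, and the probe named by accession was above background on no array.

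Of the intracellular clade B, Serpinb9, which protects cells from granzyme B, had the largest difference. The signal of the first probe shown above was 147, 159 and 156 in KO testes, against 95.2, 128 and 106.6 in WT testes, without overlap. The log2 difference was 0.50 (SE 0.11, adjusted p = 0.071), with 0.47 on slide 1 and 0.55 on slide 2. The second probe read 77.6, 88.6 and 65.4 in KO testes, against 41.7, 65.7 and 48.2 in WT testes, a log2 difference of 0.59 in which KO replicate 3 and WT replicate 2 just overlapped. Serpinb9 passed the threshold without WT replicate 2 (adjusted p = 0.034) and with array weights (0.041). Of 8 macrophage markers, 7 lay above 0, against 49.3% of all tested genes, and Cx3cr1 lay at -0.46. Their median log2 difference was 0.15, with a summed signal of 5543 to 6405 in KO and 4963 to 5421 in WT testes. None of the 8 was called, and their part in the Serpinb9 result was not tested. The lean was not particular to macrophage markers, as 10 of the 11 germ cell markers also lay above 0. Of the T and NK cell markers 3 of 7 were tested and 0 were called, with a summed signal of 3742 to 3969 in KO and 3227 to 3579 in WT testes. Most of that sum was Cd3d, with 3628, 3834 and 3602 in KO and 3065, 3384 and 3379 in WT testes (log2 difference 0.17). Nkg7 (0.13) and Cd3e (-0.35) were dim, and their groups overlapped.

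Serpinb6a, an intracellular inhibitor of cathepsin G, was among the steadiest members, with 12530, 13080 and 13026 in KO testes, against 13030, 12796 and 13355 in WT testes. Its log2 difference was -0.02 (SE 0.04). The other clade B genes, Serpinb1a (-0.08), Serpinb1c (-0.04), Serpinb3c (-0.14), Serpinb6b (-0.22), Serpinb6c (-0.13), Serpinb6d (0.09) and Serpinb9g (0.27, from a probe listed for 2 RefSeq genes), overlapped between the genotypes. The Serpinb2 probes disagreed in sign: the first had 72.1, 43.3 and 57.4 in KO and 43.8, 54.2 and 47.2 in WT testes (log2 difference 0.23), the second 40.8, 51.2 and 46.2 in KO and 61.7, 65.6 and 48.0 in WT testes (-0.34). No direction is therefore given for Serpinb2.

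**Figure D4:**
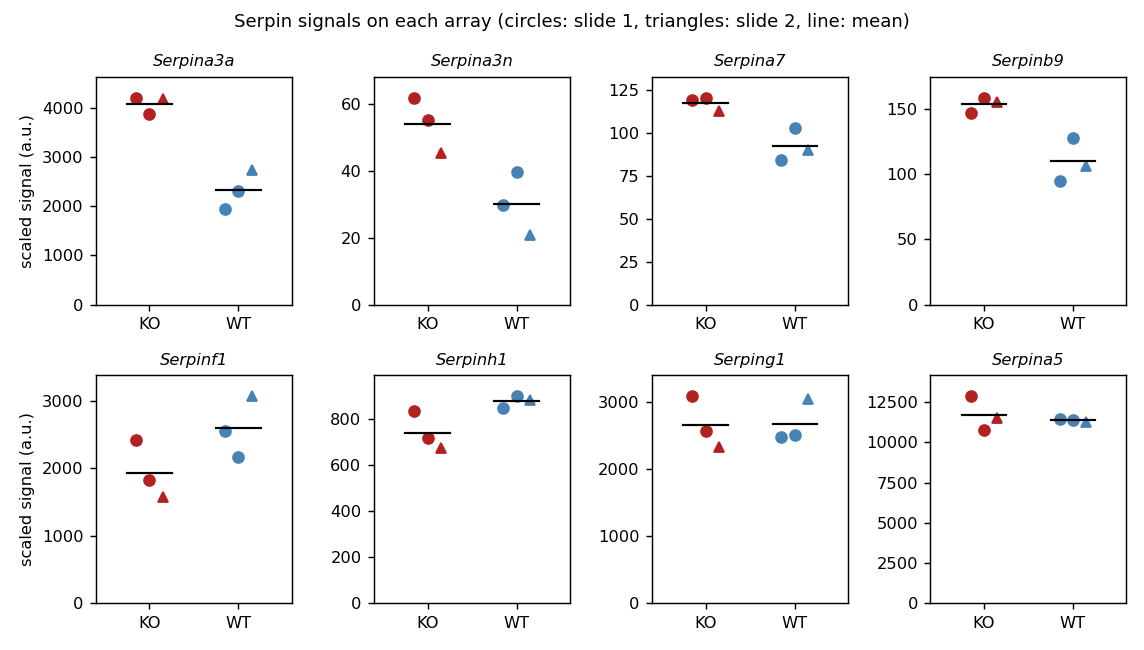
Scaled signal in arbitrary units (vertical axes, from 0) of 8 serpin genes in KO (left, red) and WT (right, blue) testes, with circles for slide 1, triangles for slide 2 and a line at the mean. The genotypes are apart for Serpina3a, Serpina3n, Serpina7, Serpinb9 and, in the other direction, Serpinh1, while Serpinf1, Serping1 and Serpina5 overlap.

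The plasma and matrix serpins of the other clades had small differences. Antithrombin, Serpinc1, which blocks thrombin, had 188, 175 and 189 in KO testes, against 185, 181 and 180 in WT testes, and both of its probes gave a log2 difference of 0.02. The antiplasmin gene Serpinf2, with 100, 152 and 176 in KO and 163, 149 and 184 in WT testes, had -0.25 (adjusted p = 0.53). The complement inhibitor Serping1 had 3084, 2562 and 2321 in KO testes, against 2468, 2503 and 3044 in WT testes, and its log2 difference of -0.01 joined opposite values of 0.18 on slide 1 and -0.39 on slide 2. Neuroserpin, Serpini1, which inhibits tissue plasminogen activator, had 1003, 880 and 898 in KO testes, against 856, 816 and 849 in WT testes, without overlap (log2 difference 0.14, SE 0.06, adjusted p = 0.24). Serpini2 had 0.03.

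Of the genes of clades F and H, Serpinf1 had the lowest log2 difference, and Serpinh1 was the one whose groups did not overlap. Serpinh1 encodes the endoplasmic reticulum chaperone of collagen and does not inhibit proteases. Its signal was 832, 714 and 671 in KO testes, against 848, 897 and 880 in WT testes. The groups did not overlap, though KO replicate 1 lay just below WT replicate 1, and the log2 difference was -0.25 (SE 0.09, adjusted p = 0.154). Serpinf1, the pigment epithelium factor, which restrains vessel growth, had 2416, 1829 and 1572 in KO testes, against 2554, 2170 and 3075 in WT testes. Its groups overlapped, and the log2 difference was -0.43 (SE 0.19, adjusted p = 0.24), of which -0.16 was seen on slide 1 and -0.97 on slide 2. The second Serpinf1 probe gave -0.55.

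The collagen genes that Serpinh1 serves were taken as a list of 23 chains and modifying enzymes, all tested. Of these 0 were called, where 2.46% of all tested genes were. In the list 6 lay above 0 and 17 below, and the median log2 difference was -0.20. The summed signal was 53592 to 66943 in KO and 67806 to 78448 in WT testes. At an unadjusted p under 0.05, limma placed 3 higher and 9 lower, where 23.9% of all tested genes passed in either direction and 49.3% lay above 0. Lox (-1.08), among the 17, was above background on 1 KO and 3 WT arrays. It was thus tested only through the WT group, which favours a difference below 0. In the summed signal KO replicate 1 stood apart from the other KO mice and near WT, at 66943 against 53613 and 53592 in KO replicates 2 and 3. The bright chain gene Col1a2 had 16676 in KO replicate 1, against 9608 and 9595 in KO replicates 2 and 3. For Col18a1 and Col15a1, given below, KO replicate 1 lay with the other KO mice. The main fibrillar chain gene Col1a1 had 2748, 1007 and 1060 in KO testes, against 3166, 2925 and 3640 in WT testes (log2 difference -1.17, adjusted p = 0.148), and was named after its values were seen. The smallest p-values were those of 2 basement membrane chains. Col18a1 had 2581, 2568 and 2440 in KO testes, against 3592, 3390 and 3025 in WT testes (log2 difference -0.40, SE 0.07, adjusted p = 0.053). Col15a1 had 8497, 8653 and 9011 in KO testes, against 12517, 10521 and 13179 in WT testes (-0.46, SE 0.09, adjusted p = 0.057). Col18a1 passed without WT replicate 3 (adjusted p = 0.035) and Col15a1 without WT replicate 2 (0.031), and the number called was 3 without KO replicate 1 or WT replicate 3. The 6 peritubular cell markers had a median of -0.02 and a summed signal of 36086 to 37376 in KO and 36382 to 40080 in WT testes, and their part in the result was not tested.

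Of 26 target proteases of serpins, 20 were tested and 1 was called, where 2.46% of all genes tested were. Tissue plasminogen activator, Plat, a target of Serpini1, fell in KO testes, with 1477, 1521 and 1438 in KO, against 1936, 1788 and 1791 in WT testes. No KO value reached a WT value, and the log2 difference was -0.31 (SE 0.05, adjusted p = 0.045). With 1 array left out, the call held without WT replicate 2 (adjusted p = 0.0497) and was lost in the other 5 cases, at 0.058 without WT replicate 3 and 0.122 to 0.162 without any 1 of the other arrays. It was also lost with the slide as a block (0.063) and with median centring (0.060). The 20 had a median of -0.02, with 10 above and 10 below 0. Among those below, Ctsg (-1.11) was above background on 2 KO and 3 WT arrays. It was thus tested only through the WT group, which favours a difference below 0.

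Of 9 cofactors and receptors, 8 were tested and 1 was called, against the same share of 2.46% over all genes. Megalin, Lrp2, an endocytic receptor that clears complexes of serpins with their proteases, rose in KO testes, with 783, 797 and 763 in KO, against 601, 551 and 525 in WT testes. The genotypes were well apart, with a log2 difference of 0.48 (SE 0.06, adjusted p = 0.035). The call was lost without any 1 KO array or without WT replicate 1, at adjusted p-values of 0.084 to 0.153.

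The array carried 46 of 53 listed protease inhibitors of other families, and 38 were tested, with a median log2 difference of 0.04. Cst11 (0.32), among the 38, was above background on 3 KO and 2 WT arrays. It was thus tested only through the KO group, which favours a difference above 0. Of the 38 tested, 4 fell and 1 rose in KO testes, where 1.25% of all genes tested were called lower and 1.21% higher. Wfdc1, a secreted whey acidic protein, had 2331, 2184 and 2223 in KO testes, against 3635, 3299 and 3290 in WT testes, a 1.52-fold lower level (log2 difference -0.60, SE 0.06, adjusted p = 0.024). The cystatin Cst7, an inhibitor of cysteine cathepsins, had 79.1, 85.5 and 86.3 in KO testes, against 118, 134 and 137 in WT testes (-0.63, SE 0.07, adjusted p = 0.034). Its relative Cst6 had 68.4, 67.8 and 64.4 in KO testes, against 91.3, 88.0 and 84.4 in WT testes (-0.39, SE 0.05, adjusted p = 0.035). The metalloprotease inhibitor Timp4 had 209, 210 and 228 in KO testes, against 333, 285 and 366 in WT testes (-0.60, SE 0.10, adjusted p = 0.046). Spint1, a membrane inhibitor of the activators of hepatocyte growth factor, had 675, 691 and 691 in KO testes, against 588, 594 and 558 in WT testes (0.24, SE 0.04, adjusted p = 0.0499). In all 5 the genotypes were apart, and the WT values of Timp4 were spread the most. The number of listed inhibitors called was 0 without any 1 KO array or WT replicate 1, 3 without WT replicate 3, and 5, not including Spint1, without WT replicate 2. The Spint1 call was lost with any 1 array left out, at an adjusted p of 0.052 or more, and with the slide as a block (0.074). With that block Timp4 was at 0.057, and normexp background correction took Cst6 to a log2 difference of -0.19 (adjusted p = 0.117).

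**Figure D5:**
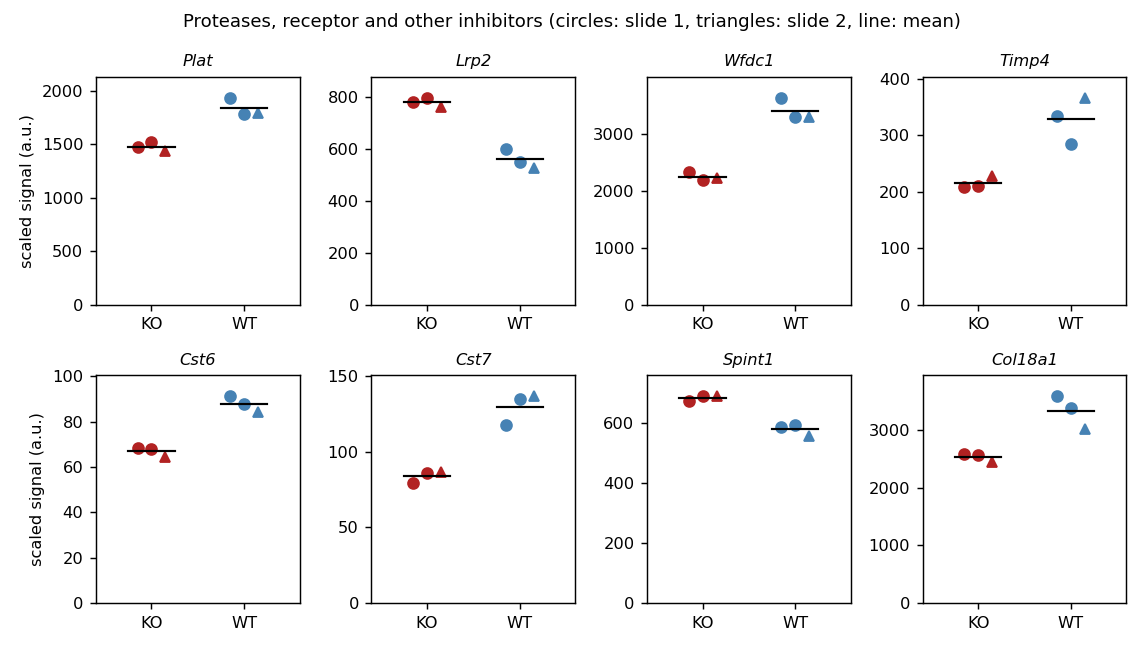
Scaled signal in arbitrary units (vertical axes, from 0) of the called protease, receptor and inhibitor genes and of Col18a1, which was not called, in KO (left, red) and WT (right, blue) testes, with circles for slide 1, triangles for slide 2 and a line at the mean. Lrp2 and Spint1 are higher in KO, and the other 6 are lower.

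Of 18 genes of acute-phase plasma proteins, which rise in inflammation together with Serpina3n, 14 were tested and 0 were called, where 2.46% of all tested genes were. Their median log2 difference was -0.02, with 6 above 0 and 8 below, against 49.3% of all tested genes above 0. Hpx (-0.43) was above background on 2 KO and 3 WT arrays. It was thus tested only through the WT group, which favours a difference below 0. The smallest p-values were those of the fibrinogen chain gene Fgb, with 273, 223 and 216 in KO and 168, 192 and 197 in WT testes (log2 difference 0.35, adjusted p = 0.133), and of Itih3, with 338, 341 and 317 in KO and 310, 276 and 299 in WT testes (0.17, adjusted p = 0.157).

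The 24 serpin genes that were not tested had readings near the floor, with a few exceptions. Serpine2, the protease nexin that blocks thrombin and is needed for normal semen in mice, had 24.7, 15.1 and 231 in KO testes, against 17.1, 19.4 and 9.84 in WT testes. The value of 231 in KO replicate 3 was the sole reading above background, and the other 5 were alike. Serpine3 had 30.2, 29.9 and 31.9 in KO testes, below background on all, against 33.2, 43.0 and 54.0 in WT testes, of which 2 were above it. Its difference was not tested. The first Serpina4-ps1 probe read 6.06, 6.77 and 8.69 in KO testes, against 239, 6.15 and 6.10 in WT testes, while the second, which shares 31 bases with it, read 7.14 in that WT mouse. Serpinb8 was above background on 2 KO arrays, Serpinb3b on 1 KO and 2 WT arrays, Serpinb9d on 2 KO and 1 WT arrays, and Serpinb9e on 1 WT array. Heparin cofactor, Serpind1, and Serpina11, Serpina12, Serpina3i, Serpinb1b, Serpinb3a, Serpinb3d, Serpinb5, Serpinb7, Serpinb9b, Serpinb9c, Serpinb9f, Serpinb10, Serpinb11, Serpinb12 and Serpinb13 were above background on 0 of 6 arrays, which gives only an upper bound for them in testis.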

How the data were processed

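Scanner outputs of 6 single-colour arrays of Agilent design 014868 were used. Per the file headers they came from Agilent Feature Extraction 10.7.3.1, which the submitters' processing notes give as 10.7. The deposited processed signal is an intensity with background already removed, per the file headers. The submitters also deposited a table of log2 values, whose columns matched the arrays at r above 0.999 and had medians of 7.72. Control and outlier-flagged spots (86 to 159 per array) were left out. The log2 processed signal minus its 75th percentile was averaged per probe. A probe needed to be well above background on every array of 1 genotype, with at least 2 values per group, and the brightest tested probe stood for a gene. KO was set against WT with limma 3.58.1 (R 4.3.3) and Benjamini-Hochberg adjustment over 18976 genes. Genes at adjusted p under 0.05 were called. Gene names came from a RefSeq table (GRCm38.p6) by accession for 69 serpin probes and by symbol for 9. The steps were tested on simulated data. Precision is limited by the number of arrays.

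The serpin members and the gene lists were chosen with earlier results of these data known. The text names called serpins, the member of smallest p per clade, a set of role genes, and of other lists the called members or the 2 of smallest p. Same-numbered KO and WT arrays correlated in their deviations at -0.028, -0.027 and 0.164, so numbers were not taken to pair mice. The slides and the scans divided the arrays in the same way. Alternatives were other background corrections, normalizations, filters, probe rules, variance models, blocks, left-out arrays and thresholds. The values of 1 tested member and the sequences of 1 probe pair are not reported here.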

Additional observations from a re-analysis of the deposited data

How the results depend on the processing

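The number of serpin genes called higher in KO was 1. It was 0 with no filter on dim probes, with the replicate block, with the slide as a block and on slide 1 alone, 2 with array weights, 3 at adjusted p under 0.1, and 0 to 2 with each array left out. The number called lower was 0 in every setting run, where limma placed 2 at an unadjusted p under 0.05. Serpina3a kept its direction in all settings, and its adjusted p was 0.127 without the filter, 0.133 with the replicate block, 0.057 with the slide block and 0.116 on slide 1 alone. The serpin median moved between -0.02 and 0.05 with each array left out and kept its place near 0 elsewhere. Over all genes the 467 calls became 8 without the filter, 275 for the mean of a gene's probes, 293 for each probe on its own, 1270 with a variance trend and robust fitting, 1173 with array weights, 2 with the replicate block, 79 with the slide block, 27 on slide 1 alone, 1866 at adjusted p under 0.1 and 2 to 779 with each array left out. The target proteases called (1) became 0 with median centring, no filter, each probe on its own, either block or slide 1 alone, 2 with the filter on all 6 arrays, 5 with the trend, 4 with weights, 5 at 0.1 and 0 to 4 with each array left out. The other inhibitors called (5) became 0 with no filter, the replicate block or slide 1 alone, 3 with the mean of probes, each probe or the slide block, 9 with the trend, 9 at 0.1 and 0 to 5 with each array left out. Collagen synthesis genes called (0) became 1 with the filter on all 6 arrays, 2 with the trend, 2 with weights, 3 at 0.1 and 0 to 3 with each array left out. Cofactors and receptors called (1) became 0 with no filter, the replicate block or slide 1 alone, and 0 to 1 with each array left out. The cause of these moves was not tested. The fits on slide 1 alone or with 1 array left out also rest on fewer arrays.

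Some log2 differences of serpin genes that were not called turned sign. With normexp they were -0.0085 for Serpina5, 0.015 for Serpina6, -0.062 for Serpinb2 and 0.0087 for Serpinb6a. The mean of its probes gave -0.055 for Serpinb2, and array weights gave 0.010 for Serpina3j and 0.165 for Serpinb3c. Slide 1 alone gave -0.040 for Serpina10, 0.044 for Serpina6, 0.099 for Serpinb1c, -0.478 for Serpinb2, -0.012 for Serpinc1 and 0.177 for Serping1. With each array left out the value ran between -0.372 and 0.489 for Serpina10, -0.205 and 0.040 for Serpina3j, -0.060 and 0.334 for Serpina3k, -0.030 and 0.0996 for Serpina5, -0.179 and 0.119 for Serpina6, -0.134 and 0.046 for Serpinb1c, -0.342 and 0.417 for Serpinb2, -0.410 and 0.196 for Serpinb3c, -0.092 and 0.856 for Serpinb9g, -0.0036 and 0.052 for Serpinc1, -0.125 and 0.085 for Serping1, and -0.018 and 0.102 for Serpini2. Taking the 75th percentile over unflagged spots, chosen after seeing the data, moved no serpin call. Replicate numbers were not taken to pair the mice. Signal over background limited what could be tested: 28 of the 78 serpin probes were above it on no array.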
